A study of Homo sapiens with 56 samples.

Results

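Metallothioneins and their zinc-response partners were followed as a set of 8 genes, taken as the rows of the deposited table whose gene symbol was MT2A, MT1X, MT1E, MT1F, MT1G, MT1M, MTF1 or SLC30A1. All 8 symbols were found, each once, among the 21596 rows. The table held RNA-seq values of 56 libraries from mantle cell lymphoma cell lines, a B-cell cancer grown in culture: 15 from MINO-P, 13 from MINO-VR, 15 from JEKO-1 and 13 from Z138. The study, by its title, asked about inhibiting BIRC5 and MCL-1 to overcome drug resistance. CON, taken here as untreated, had 5 libraries. Of the single agents, IBR had 11, S63845, BTZ and CLF had 6 each, and YM155 had 4. Of the combinations, IBR_CLF had 8 libraries, BTZ_CLF 4, BTZ_YM155 and IBR_YM155 2 each, and BTZ_S63845 and IBR_S63845 1 each. The design text describes YM155 and S63845 alone and with a proteasome inhibitor or a BTK inhibitor. BTZ and IBR are the usual abbreviations of bortezomib, a proteasome inhibitor, and ibrutinib, a BTK inhibitor, but the labels do not spell them out. YM155 was developed as a suppressor of BIRC5 (survivin) expression, and S63845 binds MCL-1. The meaning of CLF, P and VR, the doses and the times were not given in the labels used here. Line and treatment together made 37 groups, of which 22 had 1 library, 11 had 2 and 4 had 3. The labels do not say whether libraries of a group came from separate cultures, so p-values measure only the spread between libraries, which may be technical.

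Metallothioneins are small cysteine-rich proteins that bind zinc and copper and also toxic metals such as cadmium. MTF1 is the transcription factor that senses zinc: it moves to the nucleus when free zinc rises and binds metal response elements in the promoters of the metallothionein genes and of SLC30A1. SLC30A1, also called ZnT1, is the zinc exporter of the plasma membrane. Metallothionein genes also respond to glucocorticoids and to oxidative stress, and MT2A is the form most widely expressed in human cells.

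The metal response element is the sequence through which MTF1 acts, so its core was looked for in the 250 bases before the RefSeq gene start, spelled TGCACNC or TGCGCNC and read on both strands. RefSeq promoter sequences of GRCh38.p14 were matched for 4 of the 8 genes. The MT2A window, at chr16:56608334-56608583 on the plus strand, held 7 matches, and the MT1X window, at chr16:56682220-56682469 on the plus strand, held 4. The SLC30A1 window, at chr1:211579162-211579411 on the minus strand, held 1, and the MTF1 window, at chr1:37859593-37859842 on the minus strand, held 0. Of all 35116 RefSeq promoter windows of this length, 24.8% held at least 1 match, 0.370% held at least 4 and 0.0313% held at least 7. The stretches below run 5′ to 3′ on the gene's strand, with each match to the core in capitals, and are shown for the letters around each match, while density is to be read from the counts above. For MT2A these are a pair of 30-base sites that hold 3 of the 7 matches, at chr16:56608424-56608453 and chr16:56608521-56608550, which lie within the first exon of a longer GENCODE model of the gene. For MT1X the stretch is chr16:56682220-56682423, which ends where the first GENCODE exon begins, and for SLC30A1 it is the whole window.
MT2A, distal site: agccgggTGCGCCCggcccagTGCGCGCgg
MT2A, proximal site: cggggctttTGCACTCgtcccggctctttc
MT1X: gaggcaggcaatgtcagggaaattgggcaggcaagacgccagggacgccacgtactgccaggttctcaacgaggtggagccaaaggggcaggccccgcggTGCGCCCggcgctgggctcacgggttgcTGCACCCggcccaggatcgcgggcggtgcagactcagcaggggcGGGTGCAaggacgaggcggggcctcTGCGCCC
SLC30A1: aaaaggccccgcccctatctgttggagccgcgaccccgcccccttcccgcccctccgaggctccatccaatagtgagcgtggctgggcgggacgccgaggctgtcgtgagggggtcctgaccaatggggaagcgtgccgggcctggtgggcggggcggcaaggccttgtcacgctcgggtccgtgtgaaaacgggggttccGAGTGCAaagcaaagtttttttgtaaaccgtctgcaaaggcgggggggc
The core of the antioxidant response element, TGACNNNGC, occurred 1 time each in the MT2A, MT1X and SLC30A1 windows, as it did at least 1 time in 10.9% of all windows. A pair of inverted heat shock units, GAANNTTC or TTCNNGAA, occurred in none of the 4 windows and in 11.6% of all. A match describes letters only, and says nothing on whether a factor was bound.

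The values were log2(CPM + 1), where CPM is counts per 1000000 counts of the library, and levels are given here as CPM. Steps between low values put the depth, in units of 1000000 reads, at 5.52 to 21.6 (median 16.02), so that 3 reads were worth 0.139 to 0.543 CPM. Mitochondrially encoded genes took 1.91% to 80.5% of a library (median 6.69%) and exceeded 50% in 6 JEKO-1 libraries: BTZ replicates 1 and 2, both BTZ_CLF and both IBR_CLF libraries. Since CPM is a share of the total, every other gene is lowered in these 6, and calls that hang on this are given with the mitochondrial genes left out. JEKO-1 BTZ replicate 3 and Z138 IBR replicate 1 stood apart from the other libraries of their groups. By their names, 8 libraries, the CON, CLF, BTZ and BTZ_CLF libraries of MINO-P and MINO-VR, form a series marked HK and the other 48 a series marked MCL. Within both MINO lines no treatment was in both series, so there treatment and series cannot be told apart except through the additive model. In 8 pairs of libraries the values differed far less (chi-square per degree of freedom 4.24 to 45.05) than in other pairs of 1 group (67.2 to 864), and a fit with each pair averaged to 1 library was run. All 7 B-cell and mantle cell lymphoma markers examined were above 0 in each library, while the T-cell markers CD3D and CD3E were listed at 0 in 43 and 41 libraries. Markers of other cell types were not all absent. The epithelial marker EPCAM was above 0 in each library (median 4.73 CPM, highest 20.8). The fibroblast marker COL1A1 was at 0 in 3 libraries (median 4.58 CPM, highest 71.9) and the myeloid marker CD14 in 15 (median 0.15). LYZ (myeloid), KRT8 (epithelial) and COL1A2 (fibroblast) were at 0 in 28, 31 and 42 libraries.

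MT2A and MT1X were the most abundant metallothioneins over all libraries, and in JEKO-1 most libraries also held MT1F and MT1G at 1 CPM or more. MT2A (ENSG00000125148, chromosome 16, 56608584 to 56609498) was above 0 in each library, at 1.67 to 219.5 CPM with a median of 22.6. MT1X (ENSG00000187193) ranged from 0 to 29.96 CPM with a median of 6.55. MT1E (ENSG00000169715), MT1F (ENSG00000198417) and MT1G (ENSG00000125144) had medians of 0.92, 0.34 and 0.27 CPM and reached 1 CPM in 25, 17 and 21 of the 56 libraries. MT1M (ENSG00000205364) was listed at 0 in 53 libraries and reached at most 0.60 CPM, so it passed no filter and was not tested. Per kilobase, the median levels were 17.4 CPM for MT2A and 3.69 for MT1X, against 7.06 for SLC30A1 (ENSG00000170385) and 3.47 for MTF1 (ENSG00000188786), both on chromosome 1. MTF1 and SLC30A1 were above 0 in each library, at 5.68 to 63.6 CPM (median 27.9) and at 14.6 to 120.9 CPM (median 38.6).

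The 6 metallothionein members lie with 3 others of the table, MT1A, MT1B and MT1H, in a run of 75.6 kb on chromosome 16, and those 3 had a median of 0 CPM. Genes of this family are close copies of one another, and the counting step that could split reads between them is not given in the sources used here, so the levels of MT1E, MT1F, MT1G and MT1M in particular are uncertain. Summed over the 6, metallothionein transcripts made 4.61 to 280.7 CPM (median 38.9). MT2A made over 50% of that sum in 44 of the 56 libraries, in 15 of 15 from MINO-P, 13 of 13 from MINO-VR and 12 of 13 from Z138, but in 4 of 15 from JEKO-1, where its median share was 43.1%.

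**Figure D1:**
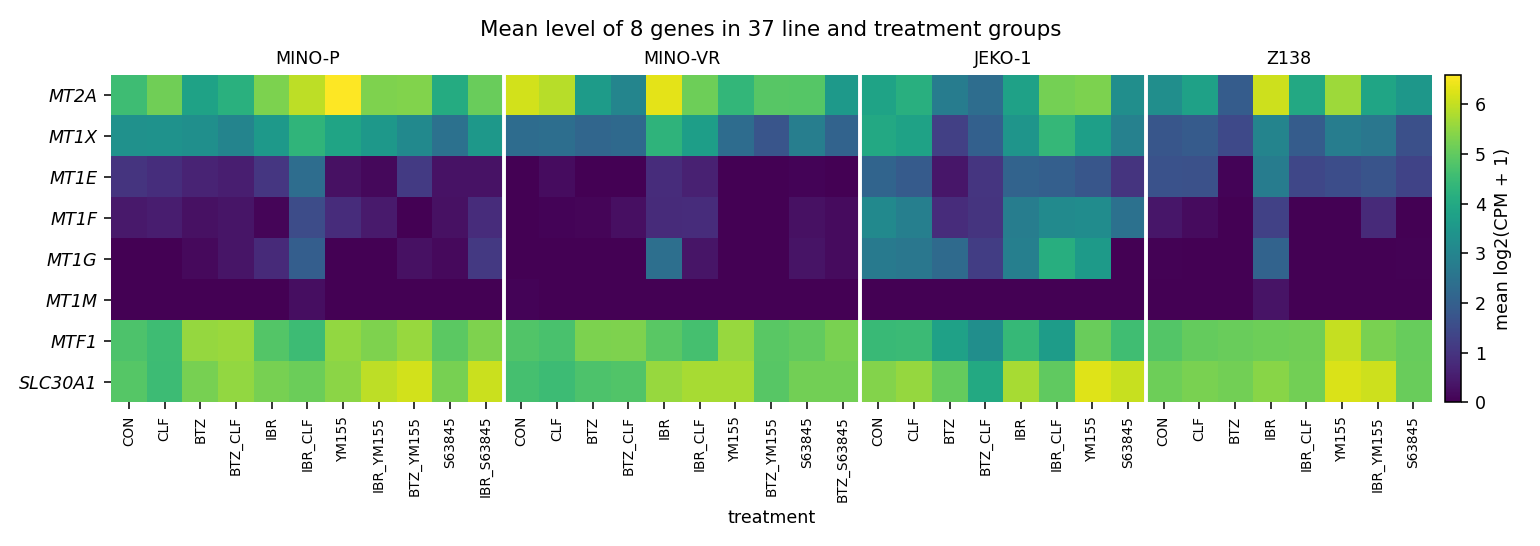
Mean log2(CPM + 1) of each of the 8 genes (rows) in each of the 37 groups (columns, treatments within each line), from dark (0) to yellow (highest). MT2A, MTF1 and SLC30A1 are bright in most groups, but MT2A is dim in Z138 BTZ (2.79 CPM) and JEKO-1 BTZ_CLF (mean 4.25). MT1F and MT1G are lit mainly in JEKO-1, and MT1M, listed at 0 in 53 of 56 libraries, is dark.

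MT2A levels varied between lines and treatments. In bulk RNA a level is an average over the culture, so fewer expressing cells and less RNA per cell cannot be told apart. In Z138 the 2 IBR libraries read 219.5 and 20.5 CPM, the 2 CON libraries 22.7 and 2.87, and the single YM155 and BTZ libraries 48.3 and 2.79. The higher IBR library is the one that stands apart, and the lower one sits below the higher control. By library names, 219.5 pairs with the control at 22.7 and 20.5 with that at 2.87, so IBR was higher in each pair. In MINO-P the single CON library read 22.5 CPM, the CLF library 34.8, the 3 IBR libraries 32.0, 40.2 and 43.6, the 2 IBR_CLF libraries 56.01 and 65.8, and the YM155 library 96.1. Each of these treated libraries lay above the single MINO-P control, which is in the other library-name series for IBR, IBR_CLF and YM155. In MINO-VR the CON library read 70.5 CPM, the CLF library 58.7, the 3 IBR libraries 96.6, 98.8 and 53.0, the 2 IBR_CLF libraries 35.7 and 33.6, and the YM155 library 19.5. The MINO-VR order thus differed from that of MINO-P, with the control near the top and YM155 near the bottom. In JEKO-1 the CON library read 13.2 CPM, the 3 IBR libraries 11.003, 13.3 and 13.6, the 2 IBR_CLF libraries 34.5 and 37.8, the YM155 library 38.2, and the 3 BTZ libraries 1.67, 5.79 and 16.7. With mitochondrial genes left out of the total, the JEKO-1 IBR_CLF libraries read 87.7 and 92.5 CPM, IBR 13.9, 16.6 and 15.8, CON 13.5, and BTZ 5.14, 17.8 and 18.5.

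Ordered by group mean, Z138 IBR was highest for MT2A at 120.0 ± 141 CPM (SD, n = 2), followed by MINO-P YM155 (96.1) and MINO-VR IBR (82.8 ± 25.8, SD, n = 3). The 2 libraries of Z138 IBR span the means of 18 of the other 36 groups, and the libraries of MINO-VR IBR span 4, so neighbours at the top do not differ beyond their spread. On the deposited scale the lowest groups were Z138 BTZ (2.79), JEKO-1 BTZ_CLF (4.25 ± 1.79, SD, n = 2) and MINO-VR BTZ_CLF (7.09). The JEKO-1 BTZ_CLF libraries were 80.5% and 65.5% mitochondrial, which lowers their values. By treatment, BTZ libraries ranged from 1.67 to 16.7 CPM (median 8.59, n = 6) and BTZ_CLF libraries read 2.98, 5.51, 7.09 and 17.3. CON libraries ranged from 2.87 to 70.5 CPM (median 22.5, n = 5), so the BTZ and CON ranges overlap.

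**Figure D2:**
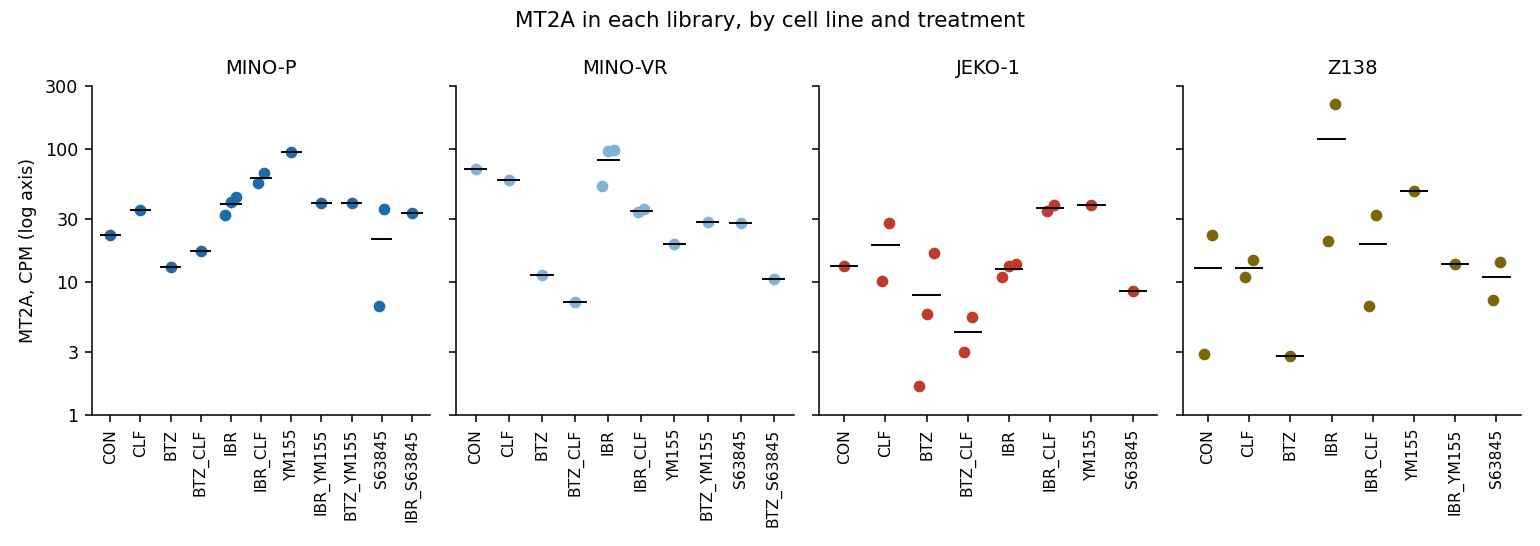
MT2A level (CPM, log axis) by treatment in 4 panels, 1 for each line, with 1 point per library and a bar at the group mean. BTZ and BTZ_CLF libraries lie at 17.3 CPM or below, and the highest point is a Z138 IBR library at 219.5.

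MT1X, the next most abundant metallothionein, had its 3 highest group means on the deposited scale in MINO-VR IBR, JEKO-1 IBR_CLF and MINO-P IBR_CLF. Its IBR libraries read 29.6, 29.96 and 7.12 CPM in MINO-VR against 4.08 in the MINO-VR control, and 10.8, 19.0 and 6.04 in MINO-P against 9.17. In both lines the first 2 of these libraries are a near-identical pair over all genes, and the third was the lowest. It was well below the pair in MINO-VR, while in MINO-P the pair itself was apart in MT1X, at 10.8 and 19.0. In JEKO-1 the control read 14.7 CPM, the IBR_CLF libraries 18.1 and 22.1, and the BTZ libraries 4.03, 1.63 and 0, the last from replicate 3. Mitochondrial genes took 1.91% of the control, 60.7% and 59.1% of the IBR_CLF libraries, and 67.6% and 67.5% of BTZ replicates 1 and 2. On the deposited scale the IBR_CLF rise is thus understated and the fall in BTZ replicates 1 and 2 overstated. Z138 had the lowest level, with a median of 2.56 CPM over 13 libraries and a highest value of 12.8 in IBR replicate 1.

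The less abundant metallothioneins differed between lines. MT1F reached 1 CPM in 12 of 15 JEKO-1 libraries but in 2 of 15 from MINO-P, 2 of 13 from MINO-VR and 1 of 13 from Z138. Its mean was 5.02 ± 3.57 CPM in JEKO-1 (SD, n = 15) and 0.40 to 0.52 in the other lines. MT1G likewise reached 1 CPM in 13 of 15 JEKO-1 libraries against 4, 3 and 1 in MINO-P, MINO-VR and Z138, with a JEKO-1 mean of 6.30 ± 5.08 CPM (SD, n = 15). The JEKO-1 control held 7.81 CPM of MT1F and 5.52 of MT1G, while the controls of the MINO lines and Z138 held at most 0.75 and 0.062. MT1E was low in MINO-VR, with a median of 0.055 CPM and 6 of 13 libraries at 0, and higher in JEKO-1 (median 2.18) and Z138 (1.84). MTF1, the zinc sensor, had means of 33.5 ± 10.6 CPM in MINO-P, 31.9 ± 8.4 in MINO-VR, 17.7 ± 7.5 in JEKO-1 and 35.7 ± 10.3 in Z138 (SD, n = 15, 13, 15 and 13). SLC30A1 means lay close together, from 38.3 CPM in MINO-VR to 45.2 in JEKO-1.

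Tested over all treatments with limma on log2(CPM + 1) (adjusted for treatment and library-name series, Benjamini-Hochberg over 16498 genes, threshold 0.05), the 4 lines differed in 5 of the 7 tested members. That count stands beside 68.5% of all genes tested, so it is near the background. The adjusted p was 3.45e-10 for MT1F, 7.25e-07 for MT1G, 0.000182 for MTF1, 0.000756 for MT1E and 0.00161 for MT1X, against 0.0840 for MT2A and 0.958 for SLC30A1. MT2A passed without Z138 IBR replicate 1 (adjusted p = 0.00492), without MINO-VR YM155 replicate 1 (0.0272) or without MINO-P S63845 replicate 2 (0.0420). SLC30A1 passed with mitochondrial genes left out (adjusted p = 0.00721).

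In the pairwise comparison of JEKO-1 with MINO-P, 3 members were called beside 37.3% of all genes. MT1F was higher in JEKO-1 by 2.10 on the log2 scale (SE 0.29, adjusted p = 7.01e-08, limma) and MT1G by 1.92 (adjusted p = 4.39e-05), while MTF1 was lower, with a difference of -0.65 (adjusted p = 0.0128). With mitochondrial genes left out the MTF1 difference was -0.27 (adjusted p = 0.149). Against MINO-VR (38.4% of genes called) JEKO-1 differed in 4 members, MT1F, MT1G, MT1E (1.42, adjusted p = 0.000570) and MTF1 (-0.60, adjusted p = 0.0261). The MTF1 difference from MINO-VR, with mitochondrial genes left out, was -0.20 (adjusted p = 0.332). Z138 against JEKO-1 (57.5% called) gave 4 calls, with MT1F, MT1G and MT1X lower and MTF1 higher in Z138 by 0.97 (adjusted p = 1.84e-05), a difference that lay between 0.47 and 1.01 over the alternatives. Z138 was lower than MINO-P in MT1X, with a difference of -1.31 (adjusted p = 0.00194), the only member called there beside 37.6% of genes. MINO-VR against MINO-P gave 0 calls of 7 (5.57% of genes, 1 member, MT1E, at an unadjusted p under 0.05). Z138 differed from MINO-VR (38.7% called) in 2 members, higher in MT1E by 1.43 (adjusted p = 0.000447) and lower in MT1X (-0.91, adjusted p = 0.0427). The MT1X call was lost in 5 of 11 alternatives, among them near-identical pairs averaged (-0.74, adjusted p = 0.145), and without 11 of the 26 libraries left out in turn, at adjusted p up to 0.107 (MINO-VR IBR replicate 2).

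**Figure D3:**
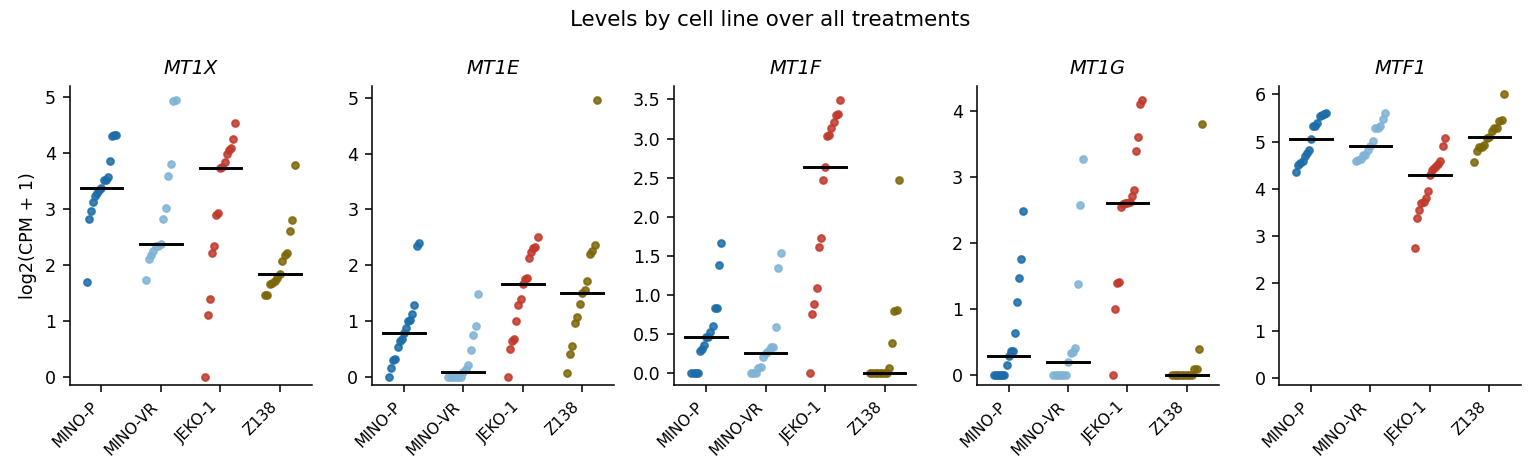
Level (log2(CPM + 1)) of the 5 members called between lines, with 1 point per library over all treatments and a bar at the median. The JEKO-1 median is the highest for MT1F and MT1G and the lowest for MTF1, and that of MINO-VR is the lowest for MT1E.

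The 2 MINO cultures could be compared within 9 treatments both received (12 MINO-VR and 13 MINO-P libraries). MT1E was lower in MINO-VR, at a mean of 0.34 against 1.26 CPM, a log2 difference of -0.70 (SE 0.18, adjusted p = 0.00679, limma), and was 1 of 7 members called beside 23.4% of all genes. It kept its call under the 5 alternatives run and with each of the 25 libraries left out in turn. MT2A differed by 0.07 (95% interval -0.53 to 0.68, adjusted p = 0.896), which does not show that the levels are equal. MT1E is a low-level gene here, and 9 of the 13 MINO-VR libraries held no more than 3 reads of it.

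BTZ was tested within 1 library-name series in the HK series, where MINO-P and MINO-VR each have CON, CLF, BTZ and BTZ_CLF libraries. By their names, the 4 libraries without BTZ carry low HK numbers and the 4 with BTZ a later block of numbers. BTZ and this block cannot be told apart. The closing codes in the names of MINO-P CON and MINO-P CLF also differ from those of the other libraries. MT2A was lower with BTZ. It read 13.0 (BTZ) and 17.3 CPM (BTZ_CLF) in MINO-P against 22.5 (CON) and 34.8 (CLF), and 11.4 and 7.09 in MINO-VR against 70.5 and 58.7. The 4 BTZ-treated libraries all lie below the 4 without BTZ. MTF1 moved the other way: 46.4 and 47.7 CPM with BTZ against 26.1 and 22.3 in MINO-P, and 38.1 and 39.4 against 27.2 and 25.2 in MINO-VR, again with no overlap. SLC30A1, the exporter, read 37.01 and 44.9 CPM with BTZ against 28.1 and 22.2 in MINO-P, and 26.0 and 27.0 against 24.1 and 21.8 in MINO-VR, so its groups overlap. MT1X lay between 3.52 and 9.38 CPM and followed the line, with 6.83 to 9.38 in MINO-P and 3.52 to 4.19 in MINO-VR. The other 4 metallothioneins were under 1 CPM in all 8 libraries and were not tested.

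In limma over these 8 libraries, 3 of 4 tested members were called with BTZ, beside 56.5% of all genes (19.9% higher and 36.6% lower, median log2 difference of all genes -0.21). MT2A fell by 1.78 on the log2 scale (SE 0.38, 95% interval -2.66 to -0.91, adjusted p = 0.00484), from a mean of 46.6 to 12.2 CPM (n = 4 each). MTF1 rose by 0.74 (SE 0.13, adjusted p = 0.00194), from 25.2 to 42.9 CPM. SLC30A1 rose by 0.44 (SE 0.16, adjusted p = 0.0416), from 24.0 to 33.7 CPM. MT1X had a difference of -0.19 (adjusted p = 0.348). MT2A and MTF1 kept their calls under the 4 alternatives run and without any 1 of the 8 libraries, but SLC30A1 lost its call in 6 of the 8 (adjusted p up to 0.151, without MINO-P CLF replicate 1). CLF, tested in the same 8 libraries, gave 0 calls among members and 0% among genes, with 0 members at an unadjusted p under 0.05 (MT2A 0.03, 95% interval -0.84 to 0.90).

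The fall of MT2A with BTZ was larger in MINO-VR than in MINO-P, by -1.85 on the log2 scale (SE 0.40, adjusted p = 0.0322, limma interaction term, 7.49% of genes called). The CON libraries of MINO-VR and MINO-P read 70.5 and 22.5 CPM and their BTZ libraries 11.4 and 13.0. The call was lost in 6 of 8 fits that left out 1 library, at adjusted p up to 0.135 without MINO-VR CON replicate 1. MTF1 and SLC30A1 were not called in the interaction.

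**Figure D4:**
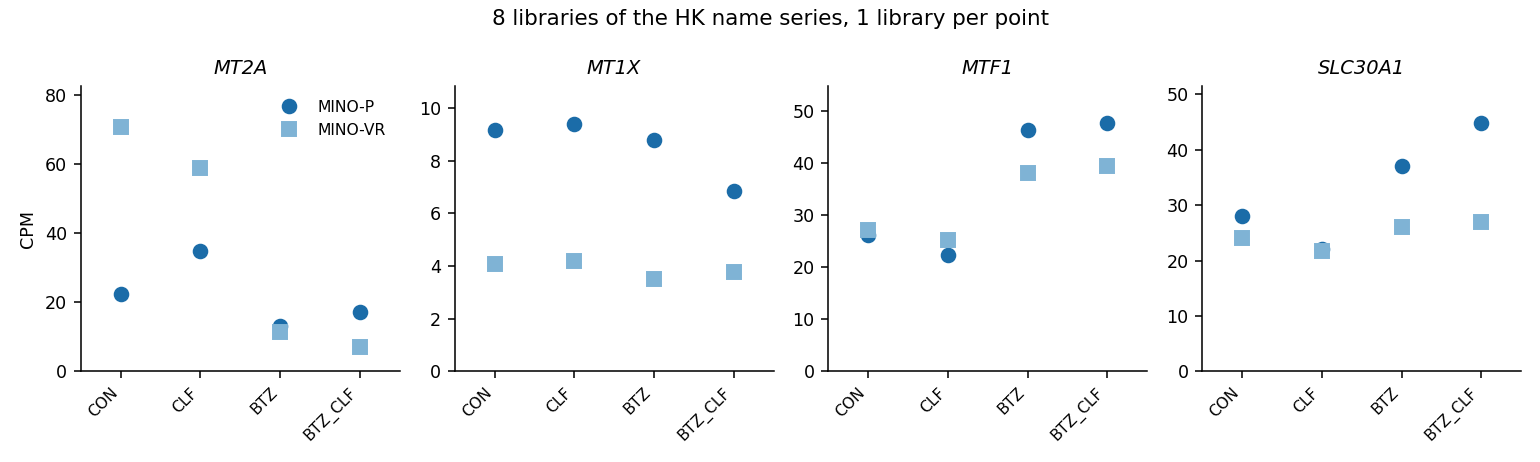
Levels of MT2A, MT1X, MTF1 and SLC30A1 (CPM, axis from 0) in the 8 HK-series libraries, by treatment, with 1 point per library, circles for MINO-P and squares for MINO-VR. MT2A lies at 17.3 CPM or below with BTZ and at 22.5 or above without, and MTF1 lies at 38.1 or above with BTZ and at 27.2 or below without.

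Across all 56 libraries the BTZ comparison gave no called member. The 5 comparisons of a single agent with CON share the same 5 CON libraries. With BTZ, 0 of 7 members were called by limma beside 24.0% of all genes (22.3% lower, 1.75% higher), and 4 of 7 were lower at an unadjusted p under 0.05. The differences were -1.16 for MT2A (SE 0.56, 95% interval -2.28 to -0.04, adjusted p = 0.124), -1.12 for MT1X (adjusted p = 0.0842), -1.02 for MT1E (0.0804) and -1.02 for MT1F (0.0550). The median of all genes was itself at -0.42, and at -0.17 with mitochondrial genes left out, where MT2A was at -0.86 (adjusted p = 0.358). MT2A was called without JEKO-1 BTZ replicate 3 (-1.48, adjusted p = 0.0350) and without Z138 CON replicate 2 (-1.59, adjusted p = 0.0411). MTF1 was at 0.11, but at 0.47 with mitochondrial genes left out (adjusted p = 0.102) and at 0.61 with size factors (adjusted p = 0.0117). SLC30A1 was at -0.01 on the deposited scale and at 0.36 with mitochondrial genes left out, so its sign depends on the scaling.

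In JEKO-1 alone, BTZ gave 0 of 7 called members beside 11.8% of genes (3 of 7 lower at an unadjusted p under 0.05), with the median of all genes at -1.07. MT1X differed by -2.73 (adjusted p = 0.0938, limma), MT1F by -2.31 (0.0869) and MT1E by -1.73 (0.0917). MT1F read 0.70, 0 and 2.33 CPM in the 3 BTZ libraries against 7.81 in the control. Without replicate 3, MT2A was at -1.74, MT1F at -2.76 and SLC30A1 at -1.29 on the deposited scale. That fit sets BTZ replicates 1 and 2, a near-identical pair with 67.6% and 67.5% mitochondrial reads, against 1 control with 1.91%. The share of all genes called there is not given here, so its calls say nothing on the members in particular. With mitochondrial genes left out and all libraries kept, SLC30A1 was at 0.72 and MT2A at -0.14, and none was called. SLC30A1 then read 46.3, 52.9 and 134 CPM with BTZ against 41.4 in the control. In Z138 alone, BTZ (1 library) gave 0 of 5 called beside 6.19% of genes and 0 at an unadjusted p under 0.05, with MT2A at 2.79 CPM against 22.7 and 2.87 in the controls. Library names of 5 Z138 treatments come with and without a suffix A, and with this suffix as a block 2277 of 14028 genes were called with BTZ, and still no member (MT2A -1.59, adjusted p = 0.458).

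BTZ_CLF was compared with CLF over 10 libraries, of which 4 are HK libraries already used in the test of BTZ above. MT2A fell by 1.76 (SE 0.60, adjusted p = 0.0172, limma), the 1 called member of 7, beside 40.6% of all genes called (39.2% lower) and a median of all genes of -0.75. With mitochondrial genes left out the difference was -0.96 (adjusted p = 0.340) and MTF1 was called higher (0.64, adjusted p = 0.0386). The call was lost without MINO-VR BTZ_CLF replicate 1 or JEKO-1 BTZ_CLF replicate 1 (adjusted p up to 0.0725). Adding CLF to BTZ gave 0 called members and 0% of genes, with 0 members at an unadjusted p under 0.05.

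On the deposited scale, the highest single value of MT2A, MT1X, MT1E and MT1F was in an IBR library each, and that of MT1G in a JEKO-1 IBR_CLF library. That scale lowers the JEKO-1 IBR_CLF libraries. With mitochondrial genes left out of the total, the highest MT1X and MT1F values were also in JEKO-1 IBR_CLF libraries. The spread among IBR libraries was wide. MT2A in IBR ranged from 11.003 to 219.5 CPM (median 40.2, n = 11) and MT1G from 0 to 13.0. MT2A was higher than CON by 1.19 on the log2 scale (SE 0.55, adjusted p = 0.193, limma), with means of 58.4 ± 61.7 (SD, n = 11) and 26.3 ± 26.0 CPM (SD, n = 5). MT1G differed by 1.22 (adjusted p = 0.130), MT1X by 0.84 (adjusted p = 0.308) and SLC30A1 by 0.47 (adjusted p = 0.475). All 7 estimates were above 0, yet 0 of 7 were called beside 6.95% of all genes, with MT2A and MT1G at an unadjusted p under 0.05. In Z138 alone, where both arms have 2 libraries, MT2A differed by 2.85 (SE 1.17, 95% interval 0.21 to 5.48, adjusted p = 0.225) and no member of 5 was called (0% of genes, 1 member at an unadjusted p under 0.05). Within libraries of the same name suffix, MT2A went from 22.7 in CON to 219.5 in IBR and from 2.87 to 20.5, higher in both. With the suffix as a block 724 of 14028 genes were called, but no member, and MT2A stood at 2.85 (adjusted p = 0.137, limma). MT1E (30.2 and 0.47 CPM), MT1G (13.0 and 0.32) and MT1F (4.56 and 0.053) were high in IBR replicate 1 of Z138 and low in replicate 2. Without IBR replicate 2, MT1X was called (2.03, adjusted p = 0.0454). In JEKO-1 alone IBR gave 0 calls of 7 (0.0416% of genes), with 0 members at an unadjusted p under 0.05. The test of IBR in JEKO-1 against Z138 gave 0 calls (0% of genes, 0 members at an unadjusted p under 0.05).

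CLF on top of IBR went in different directions by line. MT2A means went from 12.7 ± 1.4 CPM (n = 3) to 36.1 ± 2.3 (n = 2) in JEKO-1 and from 38.6 ± 5.9 (n = 3) to 60.9 ± 6.9 (n = 2) in MINO-P, but from 82.8 ± 25.8 (n = 3) to 34.6 ± 1.5 (n = 2) in MINO-VR and from 120.0 ± 141 (n = 2) to 19.3 ± 17.9 (n = 2) in Z138 (SD). In the first 3 of these lines the IBR and IBR_CLF libraries do not overlap. There, however, the 2 IBR_CLF libraries of each line are a near-identical pair, and so are 2 of the 3 IBR libraries. The SD of these groups may thus be technical, and the lack of overlap rests on few separate libraries. In Z138 they do: MT2A read 219.5 CPM in IBR and 6.63 in IBR_CLF for replicate 1, but 20.5 and 31.9 for replicate 2, so the lower mean rests on the library that stands apart. MT1G read 9.45, 5.04 and 4.80 CPM with IBR against 16.1 and 17.0 with IBR_CLF in JEKO-1, and 8.61, 4.98 and 1.61 with IBR against 0.34 and 0.26 with IBR_CLF in MINO-VR. An F-test of the line-by-CLF term in limma called 2 of 7 members beside 27.3% of all genes, MT1G (adjusted p = 0.0300) and MT2A (adjusted p = 0.0385). With the near-identical pairs averaged both calls were lost (adjusted p = 0.593 and 0.604). Leaving out 1 library changed the number of called members in 15 of 19 fits. Averaged over lines, CLF added to IBR gave 0 called members (0.0121% of genes) with 0 at an unadjusted p under 0.05, and IBR added to CLF gave 0 (4.93% of genes), likewise with 0. In JEKO-1 alone, CLF added to IBR gave 0 called members of 7 (4.46% of genes), with MT2A at 1.45 (adjusted p = 0.201) and MT1G at 1.29 (adjusted p = 0.154), the latter alone at an unadjusted p under 0.05. The JEKO-1 IBR libraries held 20.9%, 19.9% and 13.5% mitochondrial reads and the IBR_CLF libraries 60.7% and 59.1%, and with mitochondrial genes left out MT2A was at 2.47 (adjusted p = 0.0795). IBR added to CLF in JEKO-1 gave 0 (8.63% of genes), with MT1G at 1.52 (adjusted p = 0.111).

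YM155 libraries read above the controls of their lines in the zinc sensor and the exporter, though not YM155 libraries alone. MTF1 read 45.6 CPM in MINO-P, 47.3 in MINO-VR, 32.8 in JEKO-1 and 63.6 in Z138, against 26.1, 27.2, 21.2 and 22.8 or 33.4 in the controls of the same lines. SLC30A1 read 42.9, 52.8, 76.4 and 73.5 CPM against 28.1, 24.1, 40.6 and 39.0 or 30.3. Each YM155 library was thus above the controls of its own line for both genes, though for both MINO lines the control belongs to the other library-name series. The Z138 YM155 library carries the suffix A, and the Z138 control with that suffix is the one at 33.4 CPM for MTF1. SLC30A1 was also above the line's control under other treatments, at 66.8 CPM in MINO-P IBR_S63845 and 64.5 in JEKO-1 S63845. IBR libraries read 34.4 to 42.5 in MINO-P and 41.6 to 50.3 in MINO-VR, above their controls, and the CLF libraries of both lines lay below. In MINO-P, MTF1 was higher than with YM155 in the BTZ (46.4), BTZ_CLF (47.7) and BTZ_YM155 (47.1) libraries, and lower in the others. In limma MTF1 differed from CON by 1.10 (SE 0.34, 95% interval 0.43 to 1.78, adjusted p = 0.124), SLC30A1 by 0.88 (SE 0.41, adjusted p = 0.358) and MT2A by 1.39 (SE 0.65, adjusted p = 0.360). None of 7 was called beside 0.273% of genes, and these 3 were at an unadjusted p under 0.05. MTF1 was called with mitochondrial genes left out (0.98, adjusted p = 0.0307) and with size factors (0.87, adjusted p = 0.0231). In Z138 alone the MTF1 difference was 1.17 (SE 0.44, adjusted p = 0.175), 1 of 5 members at an unadjusted p under 0.05 and 0 called (0% of genes). The suffix block gave 0.93 (adjusted p = 0.0883), 0 members and 874 genes called, and MTF1 was higher in the library with the suffix in 5 of 5 such pairs. In JEKO-1 alone 0 of 7 were called (0% of genes, 0 at an unadjusted p under 0.05). Adding BTZ to YM155 gave 0 called members (0.339% of genes, 0 at an unadjusted p under 0.05), adding YM155 to BTZ 0 (0.921%, 1 at an unadjusted p under 0.05, MT2A at 1.74 with adjusted p = 0.266) and adding YM155 to IBR 0 (0% of genes, 1 at an unadjusted p under 0.05, MT1G at -1.42 with adjusted p = 0.999).

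S63845 and CLF as single agents moved no member past the threshold. MT2A in S63845 libraries ranged from 6.60 to 35.8 CPM (median 11.4, n = 6), and the 2 MINO-P libraries read 35.8 and 6.60. For S63845, 0 of 7 members were called by limma (0% of genes, 0 at an unadjusted p under 0.05), and for CLF likewise 0 (0% of genes, 0 at an unadjusted p under 0.05, MT2A at 0.38 with a 95% interval of -0.73 to 1.49). In JEKO-1, MT1G was 0 CPM in the S63845 library against 5.52 in CON, a difference of -2.71 (adjusted p = 0.694, limma), the 1 member of 7 at an unadjusted p under 0.05 and not called (0.0208% of genes). In CON and S63845 libraries of the other lines MT1G was at most 0.28 CPM.

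**Figure D5:**
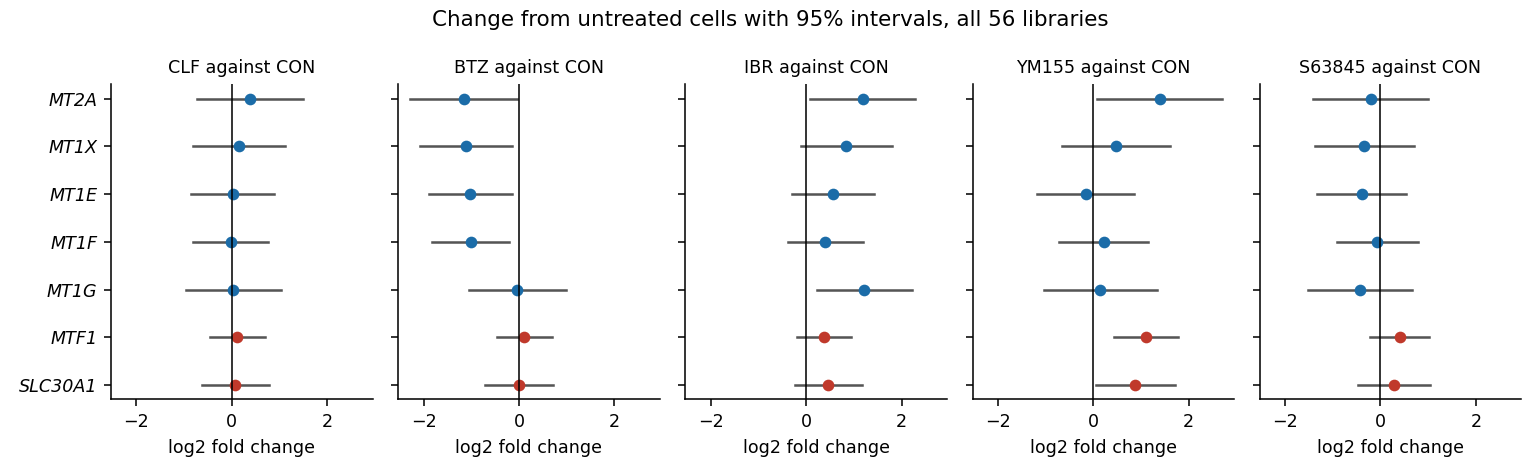
Log2 difference from CON of the 7 tested genes for each single agent (all 56 libraries, limma), with 95% intervals as bars. For BTZ the intervals of MT2A, MT1X, MT1E and MT1F lie below 0, for IBR those of MT2A and MT1G and for YM155 those of MT2A, MTF1 and SLC30A1 lie above 0, and no point passes the adjusted threshold of 0.05.

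Other genes of metal handling were described from lists. Zinc importers of the SLC39A (ZIP) family numbered 11 tested of 14. With BTZ, 5 of them fell over all libraries, SLC39A3 by 1.19, SLC39A4 by 1.66, SLC39A9 by 0.99, SLC39A13 by 1.60 and SLC39A14 by 1.58, and 0 rose, beside 22.3% of all genes lower, with a list median of -1.05 beside -0.42 for all genes. Of these 5, 3 kept the call with mitochondrial genes left out, and SLC39A3 and SLC39A9 lost it. With IBR 1 fell, SLC39A4 by 1.60 (adjusted p = 0.00964, limma), beside 6.95% of all genes called in either direction. In the HK series 6 importers fell with BTZ and 1 rose, SLC39A7 by 0.50, beside 36.6% of all genes lower and 19.9% higher, with a list median of -0.86 beside -0.21. Of the 7 other zinc exporters tested, 0 passed in limma with BTZ (1 at an unadjusted p under 0.05) and 0 with IBR (0 at an unadjusted p under 0.05) over all libraries. Of all genes, 24.0% passed with BTZ and 6.95% with IBR. Both SLC30A6 and SLC30A7, which load zinc into the secretory pathway, were called higher with BTZ once mitochondrial genes were left out, and in the HK series SLC30A6 rose by 0.82 and SLC30A3 fell by 1.31 with BTZ. Of 11 copper-handling genes tested, 2 fell with BTZ, the copper exporter ATP7B by 1.395 and SCO2 by 1.24, beside 22.3% of all genes lower. The SCO2 call was lost, and SOD1 was called higher, with mitochondrial genes left out. In the HK series 2 rose, SOD1 by 1.79 and its copper chaperone CCS by 0.50, and 2 fell, beside 19.9% of all genes higher and 36.6% lower. These copper counts are near or below the background.

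Most genes of a list of 8 stress genes rose with BTZ and with IBR. The list was chosen with earlier results of these data known, so its counts are a description and no independent evidence. Of the 8 genes, 7 rose with BTZ over all libraries, beside 1.75% of all genes higher, with a list median of 2.70 beside -0.42 for all genes. They were the inducible HSP70 genes HSPA1A (5.91) and HSPA1B (4.94), their cochaperone DNAJB1 (3.11) and heme oxygenase HMOX1 (4.38). SRXN1 (2.29), GCLM (1.999) and the cystine transporter SLC7A11 (1.62) were the others. With IBR 7 of 8 rose, beside 6.95% of all genes called in either direction, with a median of 2.43 beside 0.02 for all genes. HMOX1 had the largest IBR difference of the 8, 5.73 (adjusted p = 6.0e-05, limma), with a mean of 608 CPM against 14.4 in CON, and HSPA1A did not pass (2.47, adjusted p = 0.154). In the HK series 8 of 8 rose with BTZ (median 3.74), beside 19.9% of all genes higher, in the same 4 libraries in which MT2A was low. In limma 0 of the 8 passed with CLF, YM155 or S63845, with 0, 3 and 2 at an unadjusted p under 0.05. Of all genes 0%, 0.273% and 0% passed there, so these counts are near the background. All 7 BTZ and all 7 IBR calls held under both other scalings (size factors, or no mitochondrial genes in the total).

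The genes whose pattern was most like that of a member were found by Pearson's r over the 37 group means, each centred on its line, as a description with no test. These groups share lines, library-name series and depth. In several JEKO-1 groups a high mitochondrial share also lowers every other gene together. No r is given with mitochondrial genes left out, so how much of any r comes from this share was not tested. For MT2A the nearest were IRF7 (r = 0.77), ISG15 (0.76), CDK2AP2 (0.75), KLHDC7B-DT (0.73) and CNNM4 (0.72). For MT1X they included FBXW4 (0.75), ZNF16 (0.75), DCXR (0.74) and KRTCAP2 (0.74). SLC30A1 had closer neighbours, FAM117A (r = 0.87), TIPARP (0.86), BROX (0.86), CAPN7 (0.83) and PJA2 (0.82). Among the members, MT1X went with MT1F (0.84), MT1E (0.71) and MT2A (0.70), and MTF1 went with SLC30A1 (0.73). MT2A had r = 0.08 with MTF1 and 0.30 with SLC30A1.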

How the data were processed

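RNA of 56 cultured-cell libraries was purified with columns, selected for poly(A), made into TruSeq libraries and sequenced from both ends, per the labels' protocols. The authors deposited 1 table of log2(CPM + 1) values on hg38, made with Partek per the submitters' processing notes. The aligner, annotation and counting settings are not given in the sources used here. The values are not counts: 72.8% to 89.2% of low values were whole multiples of 1 read (tolerance 0.02), too few for a count test, so limma 3.58.1 in R 4.3.3 was run on log2(CPM + 1) with an intensity trend, a pseudocount of 1, genes at 1 CPM or more in 2 or more libraries of the fit, and Benjamini-Hochberg adjustment over all genes tested (threshold 0.05). The fit over all libraries held treatment, line and library-name series. Smaller fits covered the HK series, JEKO-1, Z138, the IBR and IBR_CLF libraries and the treatments common to the MINO lines. Same-suffix Z138 libraries deviated together (r 0.24 to 0.63 over genes between the with-minus-without differences, 10 of 10 pairs of treatments over 0.1), so the suffix was also fitted as a block there. The fit over all libraries was tested on simulated data, with changes placed in BTZ and noise independent between libraries. That test did not cover the smaller fits or the near-identical pairs. A fold change is on the log2(CPM + 1) scale and understates the change of low genes. In fits where an arm has 1 library, that library is assumed to vary like the other groups. Intervals and the floor of 3 reads cover these libraries only. The rule was to name all 8 members in each comparison and list genes where called. Members and lists were chosen with earlier results of these data known. Promoter sequences and matched names came from RefSeq, GRCh38.p14. One of the genes whose pattern was most like a member's is not reported here.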

Additional observations from a re-analysis of the deposited data

Results flagged for a closer look

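The change of MT2A with BTZ differed between MINO-VR and MINO-P in the HK series, by the test of the interaction itself (adjusted p = 0.0322, limma). MT2A was lower with BTZ in both lines, at 11.4 and 7.09 CPM against 70.5 and 58.7 in MINO-VR and at 13.0 and 17.3 CPM against 22.5 and 34.8 in MINO-P. Each of these groups is 1 library. The call was lost in 6 of 8 fits without 1 library (adjusted p up to 0.135) and with no filter on low values (0.111).

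The change that CLF made on top of IBR differed between the 4 lines for MT1G (adjusted p = 0.0300, limma F-test) and for MT2A (adjusted p = 0.0385). Mean MT1G was 6.43 CPM with IBR and 16.5 with IBR_CLF in JEKO-1, 0.98 and 3.18 in MINO-P, 5.06 and 0.30 in MINO-VR, and 6.64 and 0 in Z138. With near-identical pairs averaged the adjusted p was 0.593 for MT1G and 0.604 for MT2A, and without 1 library the call was lost in 9 of 19 fits for MT1G and 14 of 19 for MT2A. Z138 IBR replicate 1, which stands apart, holds the highest MT1E, MT1G and MT2A of its line.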

How the results depend on the processing

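The labels give no replicate numbers, but library names in 5 Z138 treatments come with and without a suffix. With the suffix as a block, the number of called members was as reported in each comparison over all libraries, and in Z138 alone (a fit added after seeing the data) it was 0 in each of 7 comparisons. No called member reversed its direction. Among members not called, the sign of SLC30A1 with BTZ depended on the scaling, over all libraries and in JEKO-1. Over all libraries, the number of called members with BTZ, reported as 0, was 1 with size factors (MTF1), 1 with a pseudocount of 0.1 (MT1E), 2 with the libraries of a group averaged (MT2A, MT1E) and 1 in JEKO-1 and Z138 only (MT1F). For YM155, reported as 0, it was 1 (MTF1) with mitochondrial genes left out, with size factors and with array weights. For IBR it was 1 (MT1G) with no series term. For BTZ_CLF against CLF, reported as 1, it was 0 with near-identical pairs averaged, 2 in JEKO-1 and Z138 only (MT1F, SLC30A1) and 2 with array weights (MT2A, MTF1). Between lines, reported as 5, it was 1 (MTF1) among genes with a mean of at least 10 CPM, where fewer genes are tested. With no filter on low values the line difference in the BTZ effect of the HK series and that in CLF added to IBR gave 0, and the latter gave 1 (MT2A) with mitochondrial genes left out. The cause of these changes was not tested.

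Settings chosen after seeing the data gave these numbers. With libraries over 50% mitochondrial left out, YM155 gave 1 (MTF1) and BTZ_CLF against CLF 0. With mitochondrial genes left out and pairs averaged, BTZ_CLF against CLF gave 0. With pairs averaged, CLF added to IBR by line gave 0. Without JEKO-1 BTZ replicate 3 and Z138 IBR replicate 1, BTZ gave 3 (MT2A, MT1E, MT1F) and BTZ_CLF against CLF 2 (MT2A, MT1F), and with mitochondrial genes also left out BTZ gave 1 (MTF1) and YM155 1 (MTF1).

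With 1 library left out at a time, the number of called members ranged from 0 to 2 for BTZ (6 of 11 fits changed), 0 to 2 for BTZ_CLF against CLF (3 of 10), 0 to 1 for BTZ by line in the HK series (6 of 8), 0 to 5 for BTZ in JEKO-1 alone (1 of 3), 0 to 1 for IBR in Z138 alone (1 of 4) and 0 to 4 for CLF added to IBR by line (15 of 19). Of the single members called, 28 values under other settings and 50 with 1 library left out kept their direction but lost the call. The depth limits MT1M in all lines, MT1F and MT1G outside JEKO-1, where 5 to 11 libraries of each line held 3 reads or fewer, and MT1E in MINO-VR, where 9 of 13 did.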
